A study of Macaca mulatta with 7 samples.

Results

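In total RNA from rhesus macaque sperm, 426 of the 18282 genes in the deposited table (2.33%) carried more counts on the strand opposite to the annotated gene than on the gene's own strand. They were chosen by these values: a gene is included if it had at least 10 antisense counts and more antisense than sense counts in at least 5 of the 7 libraries. The levels on the 2 strands are therefore given as a description, with no test. The rule was met in all 7 libraries by 170 of the genes, in 6 by 111 and in 5 by 145.

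Antisense RNA is RNA copied from the strand opposite to an annotated gene. It can come from a neighbouring gene that runs toward or across the first, from a promoter that fires in both directions, or from a transcript that is not annotated. Mature sperm make little or no new RNA and carry transcripts left from spermatogenesis in the testis, a tissue known for broad transcription of the genome.

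The study compared 4 sperm samples of a Control group with 3 of a group labelled Maltreated, and its title places the comparison in the legacy of early life stress. The labels give no genotype and no further treatment, and the animals, Macaca mulatta aged 5.67 to 5.92 years, had sperm purified on a PureSperm 40/80 density gradient and RNA extracted with TRIzol. The labels number the samples within each group but do not say in words that each came from its own animal, so a p-value below measures the spread between these 7 samples. Since sperm RNA was measured in bulk, fewer cells of a type and less RNA per cell cannot be told apart.

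Sense counts ran from 5316383 to 30715268 per library, and antisense counts made up 6.15 to 12.1% of all counts. Maltreated 1 was the deepest library. All 11 sperm and spermatid markers were present, with a summed level of 45293 to 98168 sense CPM (counts scaled to a total of 1000000 over both strands of the 18282 genes). The 9 leukocyte markers in the table summed to between 7.11 and 42.7 sense CPM in 5 libraries, and to 790 in Control 4 and 989 in Maltreated 3. The sums were 6.28 to 286 for epithelium and accessory gland, 8.73 to 70.5 for somatic cells of the testis and 1.83 to 11.5 for erythroid cells. No marker of these lists was at 0 over all libraries. None of the listed genes was among the 426, which make up 2.33% of the table, and the lists are too short for this to be read as a result.

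The counts of a gene in this table are sums over its exon entries, which held for both strands of all 18282 genes. A read that touches several exons is counted on each of them, so a gene with many exons gathers more counts from the same reads. Of the 426 genes, 57 also had an exon listed more than once. In 311 of the 426, the exon with most antisense counts had 10 or more in at least 5 libraries. The other genes reached the rule's minimum only by summing exon entries.

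Together the 426 genes held 34.1 to 68.0% of all antisense counts, with the lowest share in Control 4 and the highest in Control 2. They held 0.882 to 1.29% of the sense counts. Antisense counts made up 75.2 to 87.7% of the counts on these genes, against 3.48 to 8.45% on all other genes. The median gene of the 426 had 54 to 300 antisense counts and 1 to 36 sense counts in a library. The 5 genes with most antisense counts summed over all libraries held 30.4 to 58.3% of the antisense counts of the 426, depending on the library. Antisense counts summed over libraries were at least 10 times the sense counts in 185 genes and at least 100 times in 45. In 51 genes they were under 2 times the sense counts. No sense count was found in any library for 9 genes, and 130 had sense counts in every library.

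**Figure D1:**
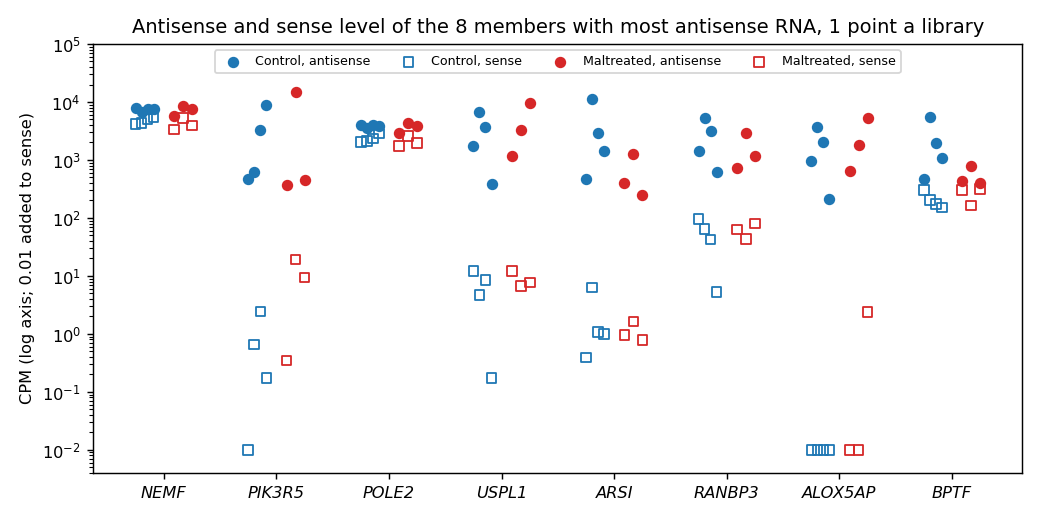
The 8 genes with the highest mean antisense level, with antisense (circles) and sense (squares) CPM of each library on a log axis, where 0.01 was added to sense so that libraries without sense counts can be drawn. NEMF and POLE2 have sense and antisense levels within 1 order of magnitude of each other, whereas PIK3R5, USPL1, ARSI and ALOX5AP have almost no sense counts.

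The exon files show what kind of antisense signal these genes carry. Of the 369 genes with at least 3 distinct exons, 136 had a level profile: in the median library, at least 80% of their exons had an antisense count close to that of the gene's median exon, the smaller of the pair at least 0.8 times the larger. These 136 genes (31.9% of the 426) held 64.3% of the antisense counts, and their exons were covered over their whole length in the median gene. The counts did not follow exon length, since in the median gene with a level profile the longest exon was 15.5 times as long as the shortest. The sources used here do not say whether the gap inside a spliced alignment was counted as covered, and its part in the level profiles was not tested. When the count of the lower neighbouring exon was subtracted from every exon, 245 genes met the rule, of which 219 were among the 426. All exons were level in 106 of 369 genes (28.7%). The same held for 134 of 1645 (8.15%) of the other genes that had at least 10 antisense counts in at least 5 libraries and 3 or more exons. The sets were not alike in other ways. The median gene of the 426 had 7 distinct exons and 12.1 antisense CPM, against 14 and 5.53 in the other genes with antisense counts. The part of these differences in the level profiles was not tested. A further 77 genes (18.1%) had at least 80% of the counts summed over libraries on a single exon, including 1 gene that also met the limit for a level profile and was counted only here. They held 7.15% of the antisense counts, with 8.13% of the gene's exon bases covered in the median gene. Another 156 genes had neither profile, and 57 had under 3 exons. Covered bases come from the same reads as the counts that chose the genes. The direction of their contrast between strands was therefore largely set by the rule. The median gene of the 426 had 96.8% of its exon bases covered by antisense reads and 4.88% by sense reads. In the other genes with antisense counts these values were 12.3% and 48.2%.

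NEMF, a factor of ribosome quality control that acts on stalled ribosomes, had the most antisense counts when summed over exons. This rank rests on its 33 exons. The highest exon of NEMF had 16707 antisense counts summed over libraries, below 126194 for ARSI, 40961 for BPTF, 28742 for ALOX5AP and 28629 for USPL1. NEMF lies on the minus strand of chromosome 14 at 111617881 to 111689040. NEMF had 83709, 41885, 50029 and 45514 antisense counts in the Control libraries 1 to 4, and 184359, 57470 and 87570 in the Maltreated libraries 1 to 3. Its sense counts were 43645, 26481, 33425 and 33402 in Control and 109300, 35898 and 46081 in Maltreated libraries. Each of the 7 libraries had more antisense than sense counts. The 33 exons of NEMF, 32 to 596 bases long, all had nearly the same count, from 2530 to 2544 antisense counts in Control 1.

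The same count ran on through the neighbouring genes. The median exon of NEMF had 2539, 1279, 1515 and 1354 antisense counts in the Control libraries 1 to 4, and 5585, 1742 and 2655 in the Maltreated libraries 1 to 3. POLE2, an accessory subunit of DNA polymerase epsilon on the same strand, had 2535, 1305, 1526 and 1357 antisense counts per median exon in Control and 5655, 1762 and 2657 in Maltreated libraries. KLHDC2, a substrate receptor of a ubiquitin ligase, lies on the plus strand with its end 721 bases from the end of NEMF, and its sense counts per median exon were 2540, 1307, 1524 and 1359 in Control and 5614, 1750 and 2665 in Maltreated libraries. Sense reads of KLHDC2 and antisense reads of NEMF and POLE2 lie on the same strand, and their counts moved together from library to library. Reads on the opposite strand were close to each other along these genes as well. Their counts per median exon in Control 1 were 1263 at POLE2, 1268 at KLHDC2 and 1310 at NEMF. In Maltreated 1 they were 3145, 3176 and 3289. DNAAF2, which helps assemble the dynein arms of cilia and sperm tails, and RPL36AL, which encodes a ribosomal protein, complete this run of 4 genes over 249.7 kb. On its far side ARF6, a small GTPase, had 3 to 57.5 counts per median exon, so the run ended there. RPS29, a ribosomal protein gene beyond the other end that is also among the 426, had 37, 25, 17 and 20 antisense counts per median exon in Control and 52, 2 and 27 in Maltreated libraries and was not part of the run.

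Such runs were counted by joining neighbouring members of the 426 on the same strand, at most 500 kb apart, whose antisense counts per median exon were level in the same sense. This gave 33 runs that hold 81 genes, and 345 genes stood alone. Runs of 4 included RPL36AL to NEMF, ZNF713-MRPS17-GBAS-CCT6A on chromosome 7 over 211.6 kb, LPAR2-GMIP-ATP13A1-ZNF14 on chromosome 19 over 105.5 kb and F2RL1-S100Z-CRHBP-AGGF1 on chromosome 5 over 257.0 kb. MAN2C1-PTPN9-IMP3-CSPG4 on chromosome 14 spanned 402.9 kb. The 3 fucosyltransferase genes FUT6, FUT3 and FUT5, which add fucose to blood group antigens, formed a run of 41.9 kb on chromosome 19. Genes of a run can share the same reads, so they are not independent of each other. TAS2R30 and TAS2R46, and likewise OR10A2 and OR10A5, are pairs of symbols on nearly the same stretch of 1 strand, so the same reads are counted for both. The fucosyltransferase genes are close copies that may split or share reads, and their separate levels are uncertain. A like level was also found at NRTN, their neighbour on the other strand, with 337 and 351 sense counts on its exons in Control 1. Antisense counts per exon there were 353 to 356 in FUT6, 356 in FUT3 and 390 in FUT5. What sets these levels was not tested.

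USPL1, which removes the small modifier SUMO from proteins, and ALOX5AP, the protein that hands arachidonic acid to 5-lipoxygenase for leukotriene synthesis, formed a run of 136.2 kb on the plus strand of chromosome 13. USPL1 had 18482, 41634, 24149 and 2295 antisense counts in the Control libraries 1 to 4, and 37987, 21981 and 110746 in the Maltreated libraries 1 to 3. Its sense counts were 128, 29, 56 and 1 in Control and 400, 46 and 90 in Maltreated libraries. The median exon of USPL1 had 2053, 4626, 2683 and 255 antisense counts in Control and 4218, 2440 and 12304 in Maltreated libraries. For ALOX5AP these were 2061, 4649, 2706 and 256 in Control and 4235, 2461 and 12364 in Maltreated libraries. Both genes were lowest in Control 4 and highest in Maltreated 3, and the groups overlapped. ALOX5AP had no sense count in 6 libraries and 28 in Maltreated 3, one of the 2 libraries with the highest leukocyte marker level. Control 4, the other of those libraries, had none. No annotated gene on the other strand was near: the closest, HMGB1, starts 148733 bases from USPL1. The exon of HMGB1 nearest to USPL1 had 12 to 74 sense counts per library, and the whole gene 67 to 435.

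PIK3R5, a regulatory subunit of the phosphoinositide 3-kinase of leukocytes, stood on its own. It lies on the minus strand of chromosome 17 at 8805538 to 8892900, and the nearest gene on the other strand, NTN1, lies 55605 bases away. PIK3R5 had 4940, 3796, 21476 and 53517 antisense counts in the Control libraries 1 to 4, and 11954, 99645 and 5335 in the Maltreated libraries 1 to 3. Its sense counts were 0, 4, 16 and 1 in Control and 11, 131 and 110 in Maltreated libraries. Antisense was highest in Maltreated 2 and next in Control 4, and the groups overlapped. Of its 19 exons, 68.4% were level, so PIK3R5 fell short of the level class, and its median exon had 380, 292, 1652 and 4116 antisense counts in Control and 919, 7664 and 410 in Maltreated libraries. The level exons lay together. In Control 1 each exon centred 0.851 to 10.9 kb from the gene's lower coordinate had 380 antisense counts. Each exon from 13.8 to 87.3 kb had 0 there. The same reads can thus be counted on each level exon.

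**Figure D2:**
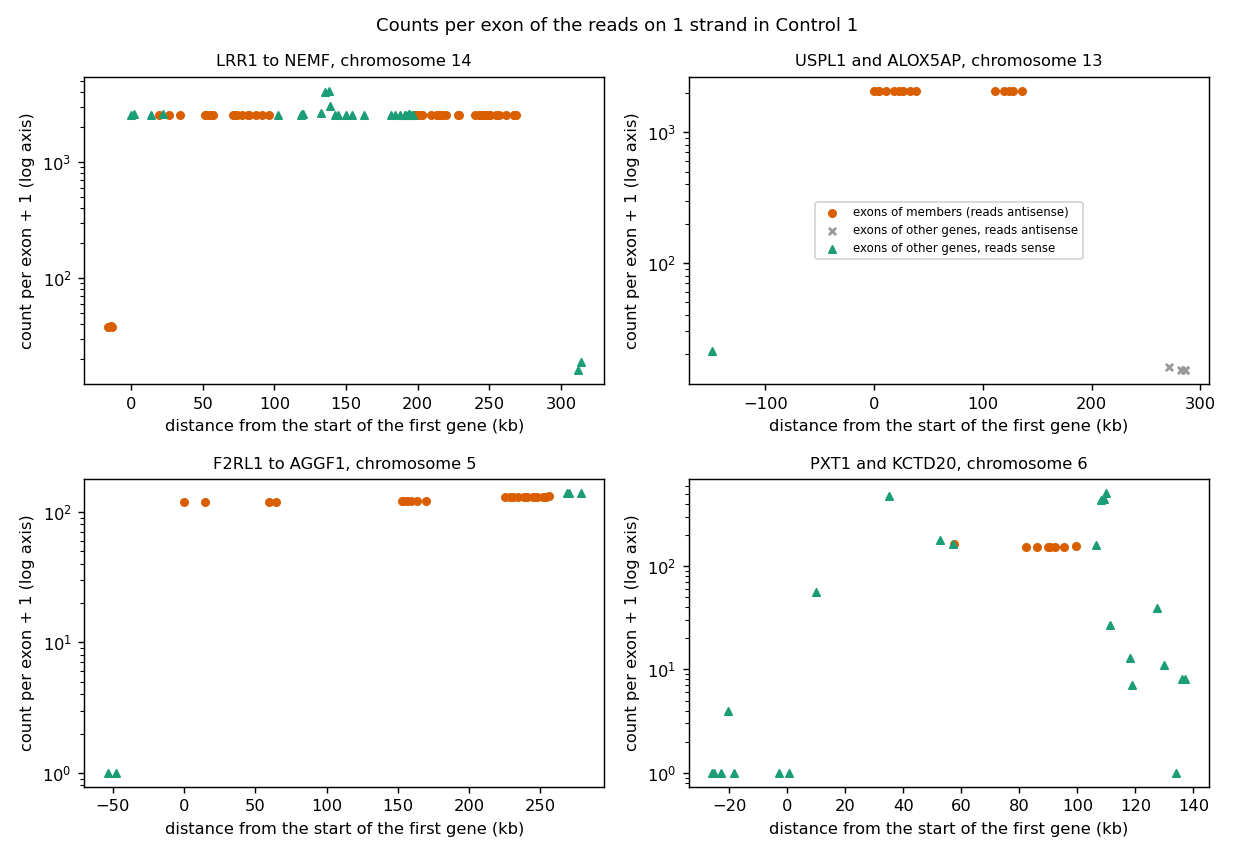
Count per exon plus 1 (log axis) in Control 1 against distance in kb along the chromosome at 4 loci, for reads on the strand opposite to the 426 genes, with exons of those genes (members) as orange circles and exons of other genes as green triangles (sense) or grey crosses (antisense). In the chromosome 14 panel most exons from LRR1 to NEMF lie on one line, with RPS29 on the left and ARF6 on the right below it.

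The position of the nearest gene on the other strand was not used to choose the genes. An exon of 30 of the 426 genes (7.04%) overlapped an exon of a gene on the other strand, and for 21 more (4.93%) the gene spans overlapped without shared exon bases. Another 130 (30.5%) had such a gene within 10 kb, 82 of them tail to tail and 48 head to head. In all 181 genes (42.5%) overlapped or lay within 10 kb of a gene on the other strand, and 245 (57.5%) had none there. The same share was 6861 of 17856 (38.4%) among all other genes and 766 of 1677 (45.7%) among those of them with antisense counts. At 10 kb the share of the 426 thus lay between those of both comparison sets. For overlap alone it was 51 of 426 (11.97%), above the 6.96% of all other genes and the 9.90% of those with antisense counts. Exon overlap was found for 5.04% and 8.11% of these sets and span overlap without it for 1.91% and 1.73%, and none of these differences was tested. A gene on the same strand lay within 10 kb for 29.1%, 29.7% and 33.9% of the 3 sets. Level profiles had a gene on the other strand near in 76 of 136 genes (55.9%), single-exon profiles in 39 of 77 (50.6%) and the remaining profiles with 3 or more exons in 51 of 156 (32.7%).

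**Figure D3:**
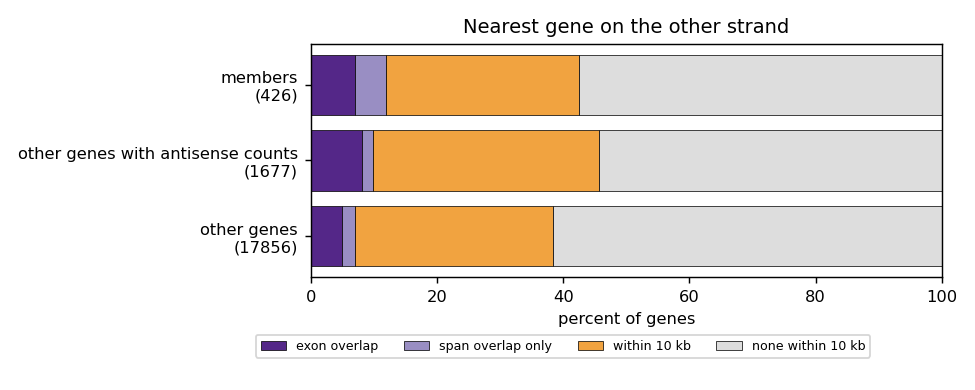
Share in percent of the 426 genes, of all other genes and of other genes with antisense counts in each class of position relative to a gene on the other strand. The class without such a gene within 10 kb is the largest in all 3 sets, at 57.5%, 61.6% and 54.3%.

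A level count shared with the neighbour was found for part of the genes only. The nearest gene on the other strand had a sense count per median exon level with the antisense count of the gene in 50 of the 181 genes with such a gene within 10 kb, and in 46 of the 245 without one. Among other genes with antisense counts the numbers were 166 of 766 and 96 of 911. SUMF2, a relative of the enzyme that activates sulfatases, is one of the 50. SUMF2 had 1435, 318, 1297 and 651 antisense counts per median exon in the Control libraries 1 to 4, and 2575, 719 and 1350 in the Maltreated libraries 1 to 3. PHKG1, a catalytic subunit of phosphorylase kinase whose end lies 360 bases away, had 1437, 322, 1337 and 652 sense counts per median exon in Control and 2582.5, 719 and 1356 in Maltreated libraries. The 2 genes were thus nearly equal in every library. CCT6A, a chaperonin subunit, lies upstream of SUMF2 on the same strand. Its antisense counts per median exon ran from 240 in Control 3 to 1101 in Maltreated 1. In Control 2 they were nearly equal to those of SUMF2, at 317 against 318, and in the other libraries they were lower.

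In 9 of the 30 genes with overlapping exons at least 80% of the antisense counts lay on those exons, in 14 under 20%, and the median was 27.6%. Of the 14, 5 had a level profile, where each exon has the same count and the share is set by the number of exons. DGCR14, a spliceosome-associated protein, had 99.7% of its antisense counts on the last of its 12 exons, which overlaps TSSK2, a protein kinase made in the testis. That exon had 410, 227, 287 and 737 antisense counts in the Control libraries 1 to 4, and 1673, 124 and 529 in the Maltreated libraries 1 to 3. TSSK2 had 410, 227, 287 and 737 sense counts in Control and 1672, 119 and 529 in Maltreated libraries, equal to the exon of DGCR14 in 5 of the 7 libraries and within 5 counts in the others. CNP, an enzyme of myelin, had 99.7% on the exon that overlaps DNAJC7, and SLC25A35, a mitochondrial carrier, had 99.2% on those that overlap RANGRF.

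RANBP3, a cofactor of protein export from the nucleus, had 5.75% of its antisense counts on the exon that overlaps CAPS, a calcium-binding protein. RANBP3 had 15363, 32141, 20829 and 3753 antisense counts in the Control libraries 1 to 4, and 24081, 19557 and 13899 in the Maltreated libraries 1 to 3, with 32 to 2070 sense counts. Of its 18 exons 94.4% were level, at 317, 664.5, 424 and 77 antisense counts per median exon in Control and 495, 401 and 282.5 in Maltreated libraries. CAPS had 318, 672, 432 and 79 sense counts per median exon in Control and 498, 405.5 and 289 in Maltreated libraries, close to RANBP3 in every library. RANBP3 was lowest in Control 4 and highest in Control 2.

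KCTD20, a regulator of Akt signalling, had 12.5% on the exon shared with PXT1, a testis-enriched peroxisomal protein. The median exon of KCTD20 had 153, 61, 227 and 129 antisense counts in Control and 458, 116 and 170 in Maltreated libraries, and that of PXT1 had 162, 61, 227 and 128 sense counts in Control and 458, 116 and 167 in Maltreated libraries. C19orf6 had 9.07% on the exon that overlaps GRIN3B, a subunit of NMDA receptors, and its median exon had 86, 82, 181 and 74 antisense counts in Control and 155, 82 and 123 in Maltreated libraries. In RANBP3, KCTD20 and C19orf6 these low shares are near 1 over the number of exons and do not place the signal within the gene.

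The next class is genes whose span overlaps that of a gene on the other strand without shared exon bases. B3GALT2, a galactosyltransferase, lies inside CDC73, a subunit of the PAF1 transcription elongation complex. B3GALT2 had 2001, 1030, 442 and 838 antisense counts in the Control libraries 1 to 4, and 7113, 820 and 1268 in the Maltreated libraries 1 to 3, with 2 to 72 sense counts. CDC73 had 14997, 4775, 5323 and 7716 sense counts in Control and 43685, 6318 and 11817 in Maltreated libraries. HTR2B, a serotonin receptor, lies inside PSMD1, a subunit of the proteasome. HTR2B had 40, 304, 112 and 0 antisense counts in Control and 181, 152 and 94 in Maltreated libraries, and no sense count in any library. CASK, a scaffold kinase of synapses whose span holds GPR34 on the other strand, had 91 to 1023 antisense counts per library, and ANGPTL2, a secreted angiopoietin-like protein that lies in the span of RALGPS1, had 10 to 551.

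The genes with a single-exon profile looked different, and so did ARSI, which has only 2 exons and stands in the class with under 3. ARSI encodes arylsulfatase I and lies on the minus strand of chromosome 5 at 148167949 to 148174557. Its antisense counts lay nearly all on exon 1 (148173665 to 148174557). That exon had 4973, 69061, 18909 and 8660 antisense counts in the Control libraries 1 to 4, and 13225, 8500 and 2866 in the Maltreated libraries 1 to 3. Only 88 of its 893 bases were covered in the median library, with a range of 33 to 893. ARSI had 4 to 39 sense counts per library. Control 2 was highest and Maltreated 3 lowest, and in counts the groups overlapped.

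BPTF, a subunit of the NURF chromatin remodeller on chromosome 17, had 99.4% of its antisense counts on exon 1 of 31, at 61039359 to 61040029. This exon had 2497, 16980, 6312 and 3220 antisense counts in the Control libraries 1 to 4, and 6979, 2625 and 2348 in the Maltreated libraries 1 to 3, over 131 of 671 bases in the median library. The gene table counts this exon more than once, and BPTF there had 5014, 34016, 12706 and 6440 antisense counts in Control and 14206, 5272 and 4708 in Maltreated libraries. BPTF also had 921 to 9990 sense counts, spread over 81.2% of its exon bases.

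ADAMTS8, a secreted metalloprotease, had 95.3% on exon 2 of 10, with 80, 1723, 347 and 72 antisense counts in the Control libraries 1 to 4, and 475, 87 and 61 in the Maltreated libraries 1 to 3. CLHC1, a clathrin linker domain protein, had 97.3% on exon 13 of 13, with 112, 867, 307 and 98 in Control and 280, 78 and 83 in Maltreated libraries. TFR2, a transferrin receptor, had 96.1% on exon 2 of 19, with 816, 452, 630 and 375 in Control and 2140, 465 and 625 in Maltreated libraries. ARSI, BPTF, ADAMTS8 and CLHC1 were all highest in Control 2 in counts and in CPM, but TFR2 was highest in Maltreated 1, the deepest library, in counts and in Control 3 in CPM. The number of covered bases in the median library was 35 for ADAMTS8, 101 for CLHC1 and 154 for TFR2.

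**Figure D4:**
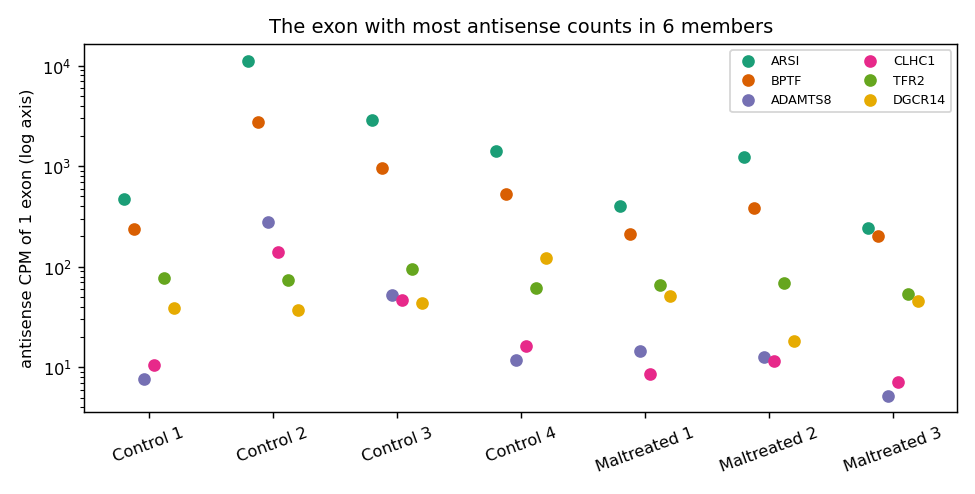
Antisense CPM (log axis) of the exon that holds most antisense counts, 1 point per library, for ARSI, BPTF, ADAMTS8, CLHC1, TFR2 and DGCR14. Scaled to depth, ARSI, BPTF, ADAMTS8 and CLHC1 are highest in Control 2, TFR2 in Control 3 and DGCR14 in Control 4.

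The genes varied widely between libraries. The median coefficient of variation (SD over mean) of antisense CPM over the 7 libraries was 0.723, against 0.858 in other genes with antisense counts. The lowest values belonged to the NEMF run, with 0.119 for POLE2 and 0.120 for RPL36AL. The highest was 2.25 for NBPF6, which had 40, 96, 16 and 1284 antisense counts in the Control libraries 1 to 4, and 134, 0 and 68 in the Maltreated libraries 1 to 3. In 257 genes the highest library was under 3 times the median library, and in 17 it was over 10 times. The highest library was Control 2 for 110 genes, Control 4 for 96 and Maltreated 2 for 73. Control 4, where leukocyte markers were high, was also the lowest library for 134 genes, and Maltreated 3, the other such library, was highest for 25 and lowest for 35. The part of these markers in the antisense levels was not tested.

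By name the 426 genes belong to many families. They include 14 of 461 zinc finger genes named ZNF (3.04%), 16 of 379 solute carriers (4.22%), 5 of 282 olfactory receptors (1.77%) and 3 of 95 cytosolic ribosomal protein genes (3.16%). Chromosome 19 held 55 of its 1282 genes (4.29%) and chromosome X 6 of 739 (0.812%), against 2.33% over the table. Genes of a run, such as LPAR2 to ZNF14 and FUT6 to FUT5 on chromosome 19, count separately here though they can share reads. No gene was included from a list of 36 known for a natural antisense transcript or an overlapping gene on the other strand. Only 2 of the 36 were among genes with antisense counts. At 2.33% over the table, a list of this length is too short for its 0 to be read as a result.

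The labelled comparison asked whether antisense counts differed between Maltreated and Control sperm, and group was not used to choose the genes. By edgeR's quasi-likelihood test with Benjamini-Hochberg adjustment, 0 of 426 genes passed an adjusted p of 0.05, as did 0 of all 4382 genes tested (0%). The smallest adjusted p among the 426 was 0.998. At an unadjusted p under 0.05 stood 3 of the 426, 1 higher and 2 lower in Maltreated, beside 2.51% of all genes tested (1.1% higher and 1.41% lower). DESeq2's Wald test called 13 genes of all tested and 0 of the 426. The libraries of both groups did not overlap for 19 of the 426 (4.46%), 6 higher and 13 lower in Maltreated, beside 4.31% of all genes tested (2.6% higher and 1.71% lower). The first share was below the background and the second near it. By direction, 1.41% of the 426 were higher and 3.05% lower without overlap, and the difference of these shares from the background was not tested. The median log2 fold change was -0.19 for the 426 and -0.13 for all genes tested, with 172 above and 254 below 0.

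The genes with the smallest unadjusted p had wide errors. ALOX12, a 12-lipoxygenase, had 17, 25, 3 and 1 antisense counts in the Control libraries 1 to 4, and 282, 392 and 49 in the Maltreated libraries 1 to 3, which comes to 1.57 ± 1.77 CPM (SD, n = 4) and 23.4 ± 29.6 (SD, n = 3). Its groups did not overlap, with a log2 fold change of 3.83 ± 1.46 (SE). ARSI had 3991 ± 4901 CPM in Control (SD, n = 4) and 632 ± 538 in Maltreated libraries (SD, n = 3), a log2 fold change of -2.65 ± 0.98 (SE), with overlapping groups. BPTF had 2245 ± 2259 CPM (SD, n = 4) and 537 ± 205 (SD, n = 3), a log2 fold change of -2.01 ± 0.77 (SE), also with overlapping groups. The log2 fold change was 2.09 to 4.89 for ALOX12, -3.48 to -1.17 for ARSI and -2.33 to -0.92 for BPTF when each library was left out in turn, where 2.09 was the value without Maltreated 2, and -1.17 and -0.92 were those without Control 2. None of ALOX12, ARSI and BPTF passed, each with an adjusted p of 0.998 by edgeR's quasi-likelihood test with Benjamini-Hochberg adjustment.

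Among the others of the smallest p, 4 depended on 1 library. SLC25A23, a mitochondrial carrier, had 18, 12, 12 and 0 antisense counts in the Control libraries 1 to 4, and 23, 342 and 24 in the Maltreated libraries 1 to 3. PSD, an exchange factor for the GTPase ARF6, had 212, 159, 16 and 68 in Control and 395, 2067 and 21 in Maltreated libraries. MST1R, a receptor tyrosine kinase, had 70, 76, 106 and 18 in Control and 1032, 489 and 182 in Maltreated libraries. Maltreated 2 was far above all other libraries for SLC25A23 and PSD. Without it the log2 fold change was 0.12 for SLC25A23 and -0.97 for PSD. For MST1R it was 2.07 ± 1.04 (SE), and 1.44 to 2.44 when each library was left out in turn. The log2 fold change of ADAMTS8 was -2.82 ± 1.31 (SE), and -0.81 without Control 2. For CLHC1 it was -2.32 ± 1.14 (SE), and -1.07 without Control 2.

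Of the other genes with the highest levels, NEMF and POLE2 differed least between groups. NEMF had 7456 ± 478 antisense CPM in Control (SD, n = 4) and 7186 ± 1422 in Maltreated libraries (SD, n = 3), a log2 fold change of 0.07 ± 0.32 (SE). POLE2 had 3863 ± 203 (SD, n = 4) and 3731 ± 733 (SD, n = 3), a log2 fold change of 0.07 ± 0.35 (SE). CPM are scaled to all counts and fold changes to TMM factors of the antisense counts, and the direction of NEMF and POLE2 turns between these scalings. In Control 1 the exons of NEMF had 2530 to 2544 antisense counts and those of POLE2 2530 to 2551. Subtracting the count of the lower neighbouring exon therefore leaves little of either gene. On what is left, the log2 fold change was -1.78 for NEMF and -0.88 for POLE2, which does not describe their level counts. USPL1 had 3135 ± 2760 (SD, n = 4) and 4622 ± 4335 (SD, n = 3), with 0.62 ± 0.87 (SE) on the log2 scale, and ALOX5AP likewise 0.62 ± 0.88 (SE). Without Maltreated 3 both turned to -0.57. PIK3R5 had 3297 ± 3915 (SD, n = 4) and 5143 ± 8196 (SD, n = 3), with 0.96 ± 1.13 (SE), and -2.44 without Maltreated 2. RANBP3 had 2611 ± 2029 (SD, n = 4) and 1598 ± 1122 (SD, n = 3), with -0.70 ± 0.72 (SE), and -0.06 without Control 2. The groups overlapped for all 6 of these genes, and the errors of the log2 fold changes reach past 0 in NEMF, POLE2, USPL1, ALOX5AP, PIK3R5 and RANBP3.

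**Figure D5:**
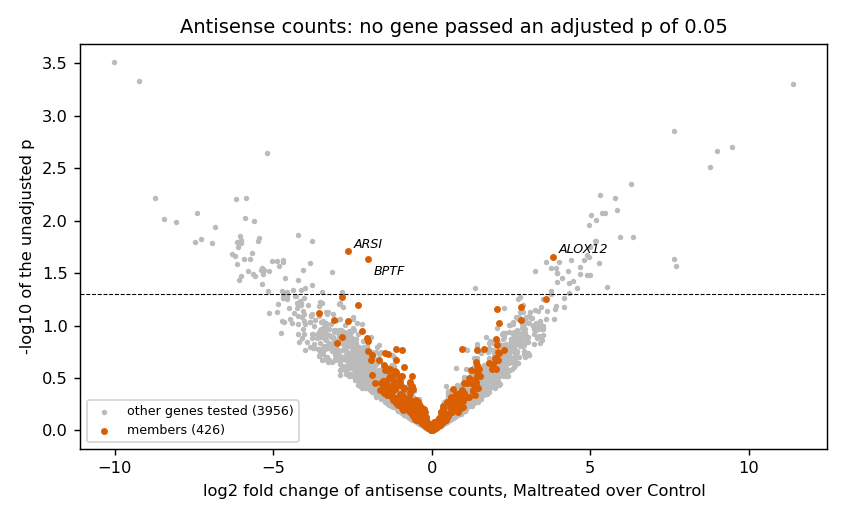
Log2 fold change of antisense counts, Maltreated over Control, against -log10 of the unadjusted p of edgeR's quasi-likelihood test, for the 426 genes (members, orange) and the other genes tested (grey), with a dashed line at an unadjusted p of 0.05. The 3 named genes above the line are ALOX12 at 3.83, ARSI at -2.65 and BPTF at -2.01.

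Sense counts of 196 of the 426 genes were high enough to test, and genes too low in sense counts are not represented there. None of the 196 passed by edgeR's quasi-likelihood test with Benjamini-Hochberg adjustment, as did 0 of all 10719 genes (0%), while 4 (2 higher and 2 lower) stood at an unadjusted p under 0.05 beside 1.78% of all (0.886% higher and 0.896% lower). Groups did not overlap for 10 of the 196 (5.10%), 6 higher and 4 lower, beside 3.71% of all (2.59% higher and 1.12% lower). The median log2 fold change was -0.0040 for the 196 genes and -0.018 for all. DESeq2's Wald test called 3 genes of all and 1 of the 196, CHIA, an acidic chitinase. CHIA had 195, 64, 41 and 793 sense counts in the Control libraries 1 to 4, and 82, 0 and 10 in the Maltreated libraries 1 to 3. Its log2 fold change was -5.17 ± 1.46 (SE) in edgeR. The highest value of CHIA was that of Control 4.

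The balance of both strands was tested with a term for each library, so that depth is taken out. None of the 426 genes passed by edgeR's quasi-likelihood test with Benjamini-Hochberg adjustment, as did 0 of all 12005 genes (0%), while 6 stood at an unadjusted p under 0.05 (1 higher and 5 lower in Maltreated) beside 2.14% of all (1.23% higher and 0.908% lower). Groups did not overlap for 23 genes (5.40%), 5 higher and 18 lower, beside 5.11% of all (3.01% higher and 2.1% lower). The median log2 change of the antisense to sense ratio was -0.41 for the 426 genes and 0.07 for all. With DESeq2's size factors in place of total counts these medians were -0.04 and 0.51, so both moved up by a similar amount, and 1 gene of all, PIK3R5, was called. In PIK3R5 the ratio had a log2 change of -3.43 ± 1.03 (SE), with sense counts of 0 to 16 in Control and 11 to 131 in Maltreated libraries. DAOA, an activator of D-amino acid oxidase, had 232, 244, 480 and 16 antisense counts in Control and 798, 162 and 266 in Maltreated libraries, with sense counts in Control 3 (110) and Control 4 (6) only. CHIA had 967, 930, 1306 and 40 antisense counts in Control and 1799, 424 and 977 in Maltreated libraries. NMS, the neuropeptide neuromedin S, had sense counts in Maltreated 1 (35) and Maltreated 3 (14) only, and its antisense counts were 140, 0, 105 and 401 in Control and 162, 112 and 0 in Maltreated libraries. The ratios of DAOA and NMS therefore rest on 2 libraries each.

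Summed over the 426 genes, antisense counts made up 81.9% ± 4.15 (SD, n = 4) of the counts in Control and 80.8% ± 4.89 in Maltreated libraries (SD, n = 3). In a two-sided exact permutation test over the 35 splits of 7 libraries this gave p = 0.771, adjusted 0.971 over both library measures. Their share of all antisense counts was 52.8% ± 14.2 (SD, n = 4) and 51.9% ± 10.3 (SD, n = 3), with an exact permutation p = 0.971, adjusted 0.971. The smallest p this design allows is 0.0286. Neither difference exceeded the spread between libraries. Leaving out Control 2 or Maltreated 1 turned the sign of both, to 0.776 and 1.68 percentage points for the first measure and 4.19 and 4.71 for the second, and leaving out Control 3 turned the second to 0.767.

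At the edge of the rule, CACNA1C, the pore of an L-type calcium channel, met it in exactly 5 libraries. CACNA1C had 3886, 597, 1047 and 3945 antisense counts in Control and 8446, 4648 and 7267 in Maltreated libraries, with 1380, 1798, 644 and 70 sense counts in Control and 8460, 575 and 1422 in Maltreated libraries. SH3GLB1, a membrane-curving endophilin, failed it only in Maltreated 1, with 197 antisense and 3928 sense counts, and in Maltreated 3, with 1094 and 1211. Just outside, 247 genes met the rule in exactly 4 libraries. Among them GYG1, the primer of glycogen synthesis, had 16194 antisense counts in Maltreated 3 but 0 to 201 in the other libraries. PDIA3, a disulfide isomerase of the endoplasmic reticulum, had 3 to 3349 antisense and 431 to 1661 sense counts.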

How the data were processed

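Sperm total RNA of 4 Control and 3 Maltreated samples was analysed, in the groups of the labels. The tools named per the submitters' processing notes are bedtools, STAR and featureCounts, whose versions and roles are not stated there. The genome build, the library kit and which strand its reads mark are not given in the sources used here. Coordinates are those of the deposited files. The counts of reads per exon on each strand, and per gene as sense and antisense, are as deposited by the authors, with no normalisation. The deposited fraction is the part of exon bases covered by reads.

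RTN3 and ZC3HAV1, listed on both strands, were left out, which leaves 18282 genes. Of the 426 symbols, 368 are current in the RefSeq gene table supplied, 5 match a synonym and 53 match none. The genes, lists and tests were chosen with earlier results of these data known. The limits for level profiles, runs and single-exon profiles, and the loci, families and chromosome counts shown, were chosen after the values were seen. Named genes are the 8 with the highest mean antisense CPM, the 4 in each direction with the smallest p for antisense counts and the 2 for the ratio, the 4 highest in each class of position, the 3 with the largest ratio of antisense to sense among genes with sense counts in every library, and 2 on each side of the rule's limit. Other genes were named after their values were seen.

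Group tests were run in R 4.3.3 with the quasi-likelihood F test of edgeR 4.0.16, after the filterByExpr filter (minimum count 10, minimum total 15). They were adjusted by Benjamini-Hochberg over all genes tested. Antisense and sense counts were scaled by TMM, and the ratio fit by the total counts of each library. The code was checked on simulated data. Alternatives were DESeq2 1.42.0, no filter, other limits of the rule and of distance, distinct exons counted once, exon counts above the lower neighbouring exon, a replicate block and leaving out libraries. CPM of single genes are scaled to all counts of both strands. The biological coefficient of variation of the antisense fit was 1.37, so spread between libraries limits the tests.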

Additional observations from a re-analysis of the deposited data

Results flagged for a closer look

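In the Control group of 4 libraries, 29 items were examined, made up of 27 named genes and both library measures. Of these, 3 genes had 1 library far from the others by Dixon's criterion for 4 samples, and chance flags about 1 in 20 groups. Over all 426 genes 40 (9.39%) had such a library, for 20 of them Control 4 with the highest value. SLC25A23 had 0 antisense CPM in Control 4 and 1.70 to 1.94 in the other Control libraries. ADAMTS8 had 283.6 antisense CPM in Control 2 and 7.57 to 52.7 in the others. DGCR14 had 121.8 antisense CPM in Control 4 and 36.8 to 43.6 in the others.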

How the results depend on the processing

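The set of 426 genes shrank to 170 when the rule had to hold in all 7 libraries, with 69 of them overlapping or within 10 kb of a gene on the other strand, and grew to 673 (323 near) with 4 of 7 libraries. With exon counts above the lower neighbour it held 245 genes (95 near). Of the 426, a gene on the other strand lay at 0 kb for 51, within 1 kb for 97 and within 50 kb for 287. For antisense counts, 24 genes were called without a filter, 1 of them among the 426 (ARSI, log2 fold change -2.55, adjusted p 0.000100 by edgeR's quasi-likelihood test, against 0.998 with the filter), and 13 by DESeq2's Wald test. For sense counts that test called 3, 1 of them among the 426 (CHIA). For the ratio, DESeq2's size factors gave 1 call, PIK3R5, and leaving out Maltreated 1 gave 1 call outside the 426. Leaving out each library moved the difference in the summed antisense share from -2.78 to 1.68 percentage points (0.776 without Control 2, 1.68 without Maltreated 1), and the mean of the share per gene gave 0.0146, against -1.13 as reported. The difference in the share of all antisense counts ran from -7.10 to 4.71 points (4.19 without Control 2, 0.767 without Control 3, 4.71 without Maltreated 1), against -0.866. The cause of these changes was not tested.

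Leaving out each library in turn turned the sign of several log2 fold changes: NEMF ran from -0.0415 to 0.236, POLE2 from -0.0482 to 0.233, USPL1 from -0.57 to 1.38, ALOX5AP from -0.57 to 1.38, PIK3R5 from -2.44 to 1.80 and PSD from -0.97 to 3.39. The lowest values came without Control 4 for NEMF and POLE2, without Maltreated 3 for USPL1 and ALOX5AP and without Maltreated 2 for PIK3R5 and PSD. With exon counts above the lower neighbour NEMF stood at -1.78 and POLE2 at -0.88. These values rest on small differences between nearly equal exons and not on the level count of either gene. Without Control 4 and Maltreated 3 together, the libraries with high leukocyte markers, NEMF stood at -0.10, POLE2 at -0.10, USPL1 at -0.89 and ALOX5AP at -0.89, and 0 genes were called for antisense counts (147 at an unadjusted p under 0.05). The median of the 426 genes was -0.19 as reported, 0.0086 without Control 2 and -0.36 without Control 4 and Maltreated 3.

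The groups share replicate numbers 1 to 3, but same-numbered libraries deviated together with r of 0.074, 0.039 and -0.022, so the numbers were not taken to pair them, and not every library correlated best with its own number. With the replicate block over 6 libraries, 0 genes were called for antisense counts and for sense counts and 1, outside the 426, for the ratio. NEMF then stood at -0.0521, POLE2 at -0.0599, USPL1 at -0.12 and ALOX5AP at -0.12.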
